A study of Saccharomyces cerevisiae with 18 samples.

Results

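The genes described here are 32 genes for proteasome subunits of budding yeast, Saccharomyces cerevisiae, and RPN4, the gene for the transcription factor that drives them. They were found by gene symbol in a table of 7118 genes and other features, and each of the 33 symbols matched 1 row. The subunits fall into the 19S cap, with 10 genes of its base and 8 of its lid, and the 20S core, with 7 genes of the alpha rings and 7 of the beta rings. SEM1, a further subunit of the lid, is not among them, so the counts, medians and sums of lid and cap leave it out. All 33 passed the filter on low counts that left 6833 genes for testing, and the lowest value of any of them in a library was 366 counts, for RPN4.

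PolyA RNA was sequenced in bulk from 18 samples, with 3 replicates in each of 6 groups that combine 3 strains with 2 ages. The wild type is strain CGY4.51, labelled MAT@. The msn2 deletion is strain CGY61.46, labelled MAT@ msn2::HphNT1, and the double deletion is strain CGY69.30, labelled MAT@ msn2::HphNT1 msn4::NatNT2. Every group was grown in synthetic complete medium that lacked biotin and held 2% glucose, 2% MMP and DAPA at pH 4.5. Young cells were taken from exponential growth. Aged cells are mother cells labelled with biotin, bound to magnetic beads and held for 24 h in the Ministat Aging Device (MAD), where a stream of medium removes the daughters they bud off. The age comparison therefore also sets bead-bound cells in a flow chamber against cells in free growth, and these cannot be told apart. Each genotype is represented by 1 strain. The labels do not state whether the replicates are independent cultures, and the p-values below cover the spread among the sequenced samples, which may be technical.

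The proteasome is the protease that degrades proteins marked with ubiquitin. The 19S cap binds the marked protein, removes the ubiquitin and unfolds the chain with a ring of ATPases in its base, and the 20S core cuts it within a chamber lined by the beta subunits. In yeast its genes are driven together by Rpn4, which binds a promoter element called PACE (proteasome-associated control element) and is itself degraded quickly by the proteasome, so that the protein builds up when degradation falls short. Msn2 and Msn4 are related transcription factors of the general stress response, which bind the stress response element (STRE). In yeast, loss of Ubr2, the ubiquitin ligase that marks Rpn4, is known to raise proteasome levels and to lengthen replicative lifespan.

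Most subunit genes shared the PACE element, 1 of 7 chosen motifs that were looked for. The letters GGTGGCAAA, searched on both strands in the window from 250 bases before to 50 after each coding start in the R64 genome (RefSeq), occurred in 27 of 32 subunit genes (84.4%) and in 72 of all 6001 gene windows (1.20%). They were found before 15 of 18 genes of the 19S cap and 12 of 14 of the 20S core. The core letters GTGGCAA, which lie within PACE, were in 31 of 32 subunit windows (96.9%) against 281 of all windows (4.68%). RPN10, RPN8, PRE5 and PUP1 had the core without the full element, RPN13 had neither, and the RPN4 window held neither. The 27 full matches each began or ended between 76 and 183 bases before the coding start, with a median of 120 for the far end, and 19 lay on the strand of the gene and 8 on the other. The matches below belong to the subunits whose levels carry the results, with the element in capitals and 10 bases on either side, written 5′ to 3′ on the strand where the letters read forward.
RPT6, 19S base, chrVII:411352-411380, minus strand: atgcgagcgaGGTGGCAAAagttgtaata
RPT4, 19S base, chrXV:813802-813830, plus strand: ctttcccttcGGTGGCAAAttccactatt
RPT1, 19S base, chrXI:174048-174076, minus strand: ttagttttcgGGTGGCAAAattcggtaat
RPN9, 19S lid, chrIV:1322086-1322114, plus strand: gctttcatccGGTGGCAAAagtaagaaca
RPN11, 19S lid, chrVI:153259-153287, plus strand: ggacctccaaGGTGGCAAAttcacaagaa
PRE9, 20S alpha, chrVII:761223-761251, plus strand: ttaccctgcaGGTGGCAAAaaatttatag
PRE10, 20S alpha, chrXV:1018856-1018884, minus strand: cctctaaatcGGTGGCAAAaataagaaag
PRE1, 20S beta, chrV:177683-177711, plus strand: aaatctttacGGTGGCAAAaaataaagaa
PUP3, 20S beta, chrV:349511-349539, minus strand: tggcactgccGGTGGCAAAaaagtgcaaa
RPN8, 19S lid, core only, chrXV:817086-817112, minus strand: ggatacctcaGTGGCAAatcgttactc
PRE5, 20S alpha, core only, chrXIII:901553-901579, plus strand: ctattatagaGTGGCAAaattaaaaat

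RPT6, RPT4, RPT1 and PUP3, which were higher in aged wild-type cells, and RPN9 and PRE1, which were lower, thus carried the same 9 letters. Other elements were less common in the same windows, each searched on both strands. STRE, as AGGGG, was in 8 of 32 subunit windows (25%) and in 21.6% of all windows. The subunit genes with it were RPN3, RPN5, RPN11, RPN13, PRE9, PRE10, PUP3 and PRE4. The match of PRE9 lay inside the coding sequence, and those of the others lay before the start. The heat shock letters GAANNTTC were in PRE6, PUP2 and RPN4, against 11.8% of all windows, and the Yap1 letters TTACTAA were in PRE5, RPN7 and RPN8, against 7.45%. The Pdr1/3 palindrome TCCGCGGA, which is also counted under TCCGNGGA, was in RPN11 alone among the 33, inside the coding sequence, against 0.217% of all windows for the palindrome. A match is a description of letters, and its absence from this window says nothing about the factor.

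**Figure D1:**
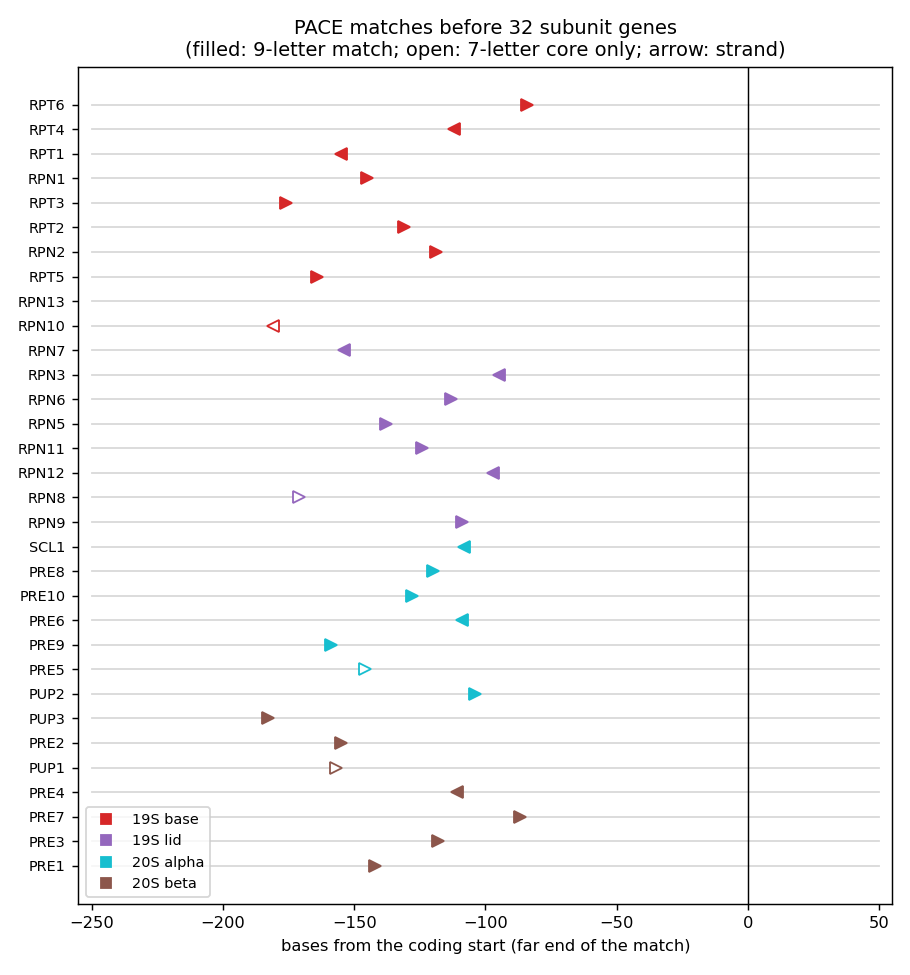
Position of PACE matches before the 32 subunit genes, with the distance in bases from the coding start on the x axis and 1 gene per line; filled arrows are 9-letter matches, open arrows the 7-letter core alone, and the arrow gives the strand. All 27 full matches lie upstream of the start, at most 183 bases away, in both the 19S and the 20S genes.

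Library totals ran from 25768602 to 41649952 counts in 5 groups and from 4078400 to 7136185 in the aged double deletion, so values of that group rest on the fewest reads. The deleted genes were read first as a check of the labels. MSN2 was at 41.7 ± 2.89 and 33.4 ± 1.83 CPM (counts scaled to the size of the library; mean ± SD, n = 3) in young and aged wild type and between 3.57 and 4.29 on average in the 4 deletion groups. MSN4 was at 42.6 ± 2.76 CPM in young and 51.5 ± 2.38 in aged wild type and at 21.4 ± 3.01 and 13.4 ± 1.29 in the double deletion, so the young double deletion libraries kept much of the MSN4 signal and this check is weaker than that of MSN2. The summed level of 4 alpha-specific genes was 3613 to 6115 CPM per library and that of 6 a-specific genes 31.7 to 55.4, and none of these genes was at 0 in any library. The summed level of 8 genes expressed in daughter cells was 966 to 1050 CPM in young and 1116 to 1264 in aged wild type, 1294 to 1502 and 1182 to 1320 in the msn2 deletion, and 1462 to 1766 and 1624 to 1886 in the double deletion, with none of the 8 at 0. No annotated gene overlapped a member; for 1078 identifiers of the table, no coordinates were used.

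Per kilobase of coding sequence, the members differed widely in level. In young wild-type cells RPN8, a lid subunit that pairs with the deubiquitinase Rpn11, was highest at 1328 CPM per kb, followed by the alpha subunit PRE9 (1001 CPM per kb) and the beta subunit PRE1 (779 CPM per kb). RPT3, a base ATPase, was lowest at 67.0 CPM per kb, followed by the scaffold RPN1 at 69.7 and RPN4 at 83.1. The median over genes was 144 ± 4.04 CPM per kb for the 18 genes of the 19S cap and 365 ± 5.77 for the 14 of the 20S core (SD, n = 3). Within the cap it was 116 ± 12.2 for the base and 299 ± 6.90 for the lid. The 20S core stood above the 19S cap in every group, and in aged wild type the medians were 168 ± 5.50 and 350 ± 19.8. In the aged double deletion they were 150 ± 6.54 and 264 ± 7.39. The files give no protein levels, and reads per kilobase of polyA RNA are not subunits per cell.

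RPN4 was lower in aged than in young cells of every strain. The gene lies on chromosome IV from 415113 to 416708 (R64, minus strand) in 1 exon. In the 3 wild-type replicates it was at 127, 144 and 127 CPM in young cells and at 94.2, 90.7 and 97.6 in aged cells. The msn2 deletion had 141, 154 and 129 CPM young and 95.5, 94.3 and 94.3 aged, and the double deletion had 154, 148 and 137 young and 88.7, 73.1 and 82.0 aged. All 9 aged libraries were below all 9 young libraries. The log2 fold change with age was -0.49 ± 0.0820 (SE) in wild type, -0.58 ± 0.0819 in the msn2 deletion and -0.84 ± 0.0858 in the double deletion, with adjusted p of 3.8e-05, 4.47e-06 and 1.33e-07 in edgeR's quasi-likelihood test with Benjamini-Hochberg adjustment over the 6833 genes. Values are scaled by TMM factors, which set the bulk of genes level between libraries. With scaling by library totals instead, the median of all genes in the age comparisons rose by 0.50, 0.59 and 0.43, and the RPN4 change became 0.019 in wild type and 0.016 in the msn2 deletion, so its fall there is a fall relative to most other genes. All rises and falls with age below are meant in that sense. In bulk RNA, fewer cells that express a gene and less RNA per cell cannot be told apart.

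Between strains of 1 age, RPN4 did not pass the test in the main fit, but some alternatives gave a call. Young deletion strains had a log2 fold change against young wild type of 0.09 ± 0.0819 for msn2 and 0.14 ± 0.0818 for the double deletion. With scaling by library totals the young double deletion was at 0.31, which passed (edgeR adjusted p = 0.00464). In aged cells the msn2 deletion differed from wild type by 0.01 ± 0.0816 (adjusted p = 0.955) and the double deletion by -0.21 ± 0.0854 (adjusted p = 0.0636). The aged double deletion differed from the aged msn2 deletion by -0.22 ± 0.0853 (adjusted p = 0.0708). Leaving out replicate 1 of the aged double deletion moved these last 2 values to -0.28 and -0.28, both then past the threshold of 0.05. The difference between the aged deletion strains also passed with library totals (-0.26) and with a minimum of 10 CPM (-0.23). The age effect on RPN4 was 0.35 ± 0.118 lower on the log2 scale in the double deletion than in wild type, at an adjusted p of 0.0486 that ranged from 0.0168 to 0.221 over the alternatives. It lost the call without any 1 of 9 of the 12 libraries, which were replicates 1 and 3 of young wild type, 1 and 2 of the young double deletion, all 3 of aged wild type, and 2 and 3 of the aged double deletion, with values between -0.29 and -0.38.

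**Figure D2:**
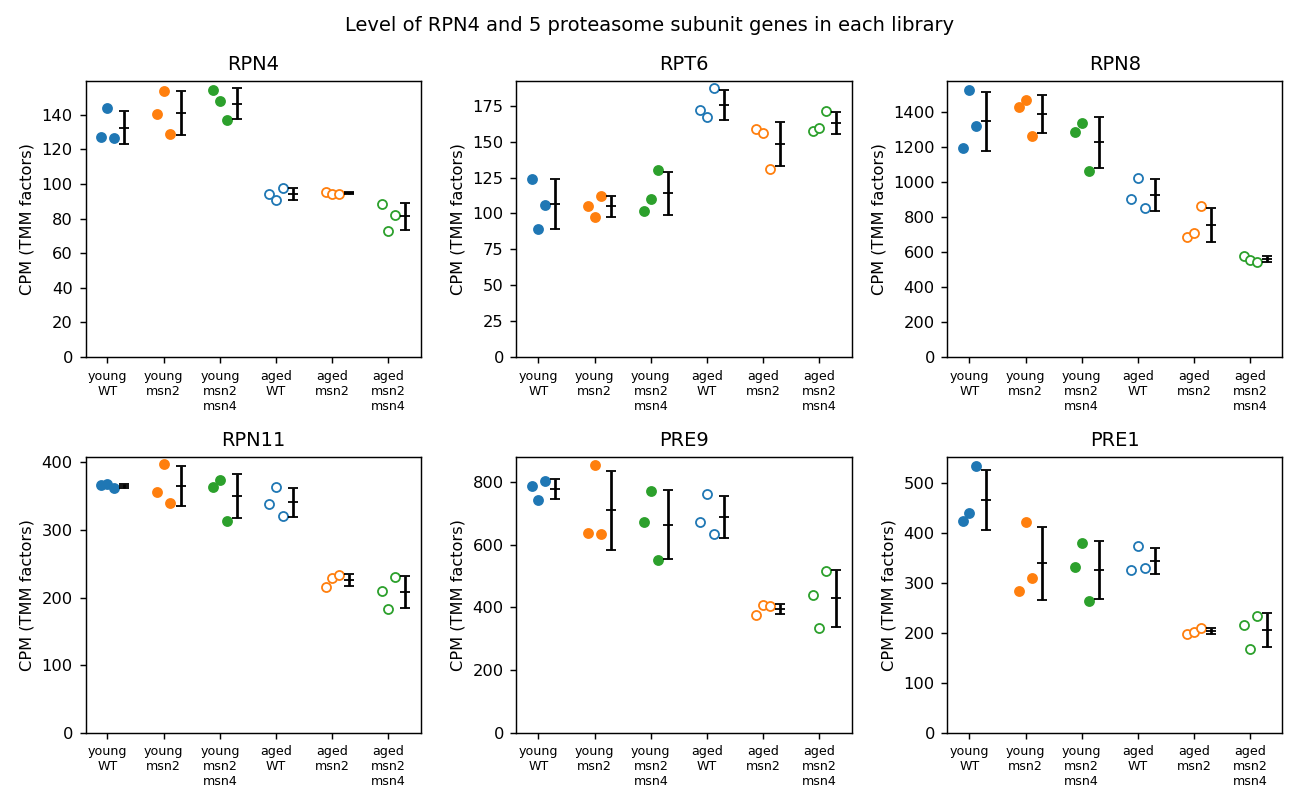
CPM with TMM factors (y axis) of RPN4 and 5 subunit genes in each of the 18 libraries (points), by strain and age (x axis), with the mean and SD of each group beside its points. RPN4 is lower in the 9 aged than in the 9 young libraries, RPT6 is higher in the aged libraries, and RPN11, PRE9 and PRE1 are lowest in the aged deletion strains.

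In aged wild-type cells the base of the cap moved up while the lid and the core were divided. Of the 33 members, 15 were higher and 7 lower than in young wild type. Across all genes tested, 33.3% were higher and 30.6% lower, and the members' median log2 fold change of 0.09 lay near the 0.03 of all genes. The base had 9 of 10 genes higher and RPN10 not called, with a median of 0.40. The lid had 2 of 8 higher and 3 lower, the alpha subunits 2 and 2 of 7, and the beta subunits 2 and 1 of 7. The summed level of the base went from 1815 ± 180 to 2457 ± 28.7 CPM and that of the lid from 3762 ± 224 to 3188 ± 134 (SD, n = 3). The sum over the 18 genes of the 19S cap was 5577 ± 61.4 and 5645 ± 105. The lid subunit SEM1, which is outside these sums, was at 1594 ± 338 CPM in young and 790 ± 128 in aged wild type.

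All 6 ATPases of the base rose in aged wild type, with a median log2 fold change of 0.50. RPT6 (YGL048C, chromosome VII from 410069 to 411286) had 124, 89.4 and 106 CPM in young wild type and 172, 167 and 187 in aged wild type. Its 9 aged libraries, over all strains, were above its 9 young ones. Its log2 fold change in wild type was 0.72 ± 0.111 (edgeR adjusted p = 1.69e-05). RPT1 rose from 164, 146 and 153 to 230, 224 and 242 CPM, with 0.59 ± 0.0745 and the smallest p of the 33 (adjusted p = 1.86e-06). RPT4 rose by 0.71 ± 0.122, RPT3 by 0.41 ± 0.0814, RPT2 by 0.39 ± 0.0969 and RPT5 by 0.30 ± 0.0757. Of the other base genes, the scaffolds RPN1 (0.56 ± 0.107) and RPN2 (0.35 ± 0.112) and the ubiquitin receptor RPN13 (0.23 ± 0.0860) rose too. RPN10, another ubiquitin receptor, was at 0.11 ± 0.0662 and did not pass.

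RPN8 and RPN9 of the lid went the other way. RPN8 (YOR261C, chromosome XV from 815915 to 816931) had 1198, 1531 and 1322 CPM in young and 906, 1025 and 851 in aged wild type, a log2 fold change of -0.54 ± 0.116. RPN9, a lid scaffold subunit, fell from 461, 524 and 586 to 347, 371 and 358 CPM, by 0.55 ± 0.139 on the log2 scale. In both genes the aged and young wild-type libraries did not overlap. RPN12 fell by 0.30 ± 0.0972, RPN7 and RPN3 rose by 0.34 ± 0.0947 and 0.29 ± 0.0843, and RPN5, RPN6 and RPN11, the deubiquitinase, did not pass.

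Within the 20S core of aged wild type, both rings held genes that rose and genes that fell. Of the alpha subunits, which form the gate, SCL1 (0.27 ± 0.0810) and PRE8 (0.26 ± 0.0794) rose, and PUP2 (-0.27 ± 0.0893) and PRE5 (-0.23 ± 0.0743) fell. Of the beta subunits, PUP3 rose from 268, 222 and 216 to 339, 366 and 304 CPM (0.51 ± 0.103), with no overlap between ages. PRE1 went from 423, 439 and 533 to 326, 372 and 329 CPM, again without overlap (-0.44 ± 0.147). Of the catalytic beta subunits, PRE2, which carries the chymotrypsin-like activity, rose by 0.19 ± 0.0739, while PRE3 (caspase-like, -0.09 ± 0.0913) and PUP1 (trypsin-like, 0.09 ± 0.0805) did not pass. With scaling by library totals, 29 members were higher and 0 lower in this comparison (10 of the base, 6 of the lid, 7 alpha and 6 beta subunits). Of the 7 lower members, RPN4, PRE1 (0.062), RPN12 (0.22), PUP2 (0.25) and PRE5 (0.28) then had values above 0. RPN8 and RPN9 stayed below 0 but were no longer called.

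In the msn2 deletion, aged cells had 6 members higher and 17 lower than young cells, against 36.6% and 33% of all genes tested. The members' median was -0.18, beside 0.03 over all genes. RPT6 (0.50 ± 0.111), RPT4 (0.39 ± 0.122) and RPT3 (0.38 ± 0.0813) of the base still rose, as did PUP3 (0.36 ± 0.103), PRE8 (0.30 ± 0.0795) and SCL1 (0.25 ± 0.0811) of the core. The lid had 6 of 8 genes lower and the other 2 not called, the alpha subunits 4 of 7 lower and the beta subunits 5 of 7 lower. RPN8 went from 1433, 1471 and 1268 to 685, 712 and 867 CPM (-0.88 ± 0.116), and RPN9 fell by 0.92 ± 0.139. RPN11 went from 357, 398 and 340 to 216, 229 and 234 CPM (-0.69 ± 0.0925). PRE9, an alpha subunit that yeast can live without, went from 638, 854 and 634 to 375, 406 and 404 CPM (-0.84 ± 0.144). In these 3 genes with values by library, no aged library of the msn2 deletion reached its lowest young one. PUP2 fell by 0.66 ± 0.0896, PRE1 by 0.74 ± 0.148 and PRE3 by 0.64 ± 0.0917. RPN13 fell by 0.43 ± 0.0862, in contrast to its rise in wild type. With scaling by library totals the members split into 22 higher and 2 lower, and RPN13 (0.16), RPN12 (0.076), RPN5 (0.036) and RPN6 (0.29) of the cap and PRE6 (0.19), PRE10 (0.39), PRE7 (0.33), PUP1 (0.36) and PRE2 (0.40) of the core turned positive, besides RPN4.

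Aged double deletion cells had 6 members higher and 20 lower than young cells of that strain, against 31.2% and 29.9% of all genes tested, with a median of -0.25 beside 0.03. RPT6 was again highest among those called, at 0.52 ± 0.113, from 101, 110 and 130 to 158, 159 and 172 CPM. RPT4 (0.32 ± 0.124), RPT1 (0.22 ± 0.0753), RPT3 (0.21 ± 0.0841), PUP3 (0.25 ± 0.104) and PRE8 (0.22 ± 0.0816) were the others that rose. RPN8 had the lowest value, from 1287, 1340 and 1062 to 580, 557 and 543 CPM, a log2 fold change of -1.13 ± 0.117. RPN9 fell by 0.95 ± 0.141, RPN11 by 0.75 ± 0.0939, RPN12 by 0.68 ± 0.101 and PUP2 by 0.67 ± 0.0907. PRE9 had 671, 770 and 550 CPM young and 440, 334 and 515 aged, a fall of 0.63 ± 0.144. The count of 6 higher members dropped to 2 without replicate 1 and to 1 without replicate 2 of the young double deletion, and to 2 without replicate 1 and 1 without replicate 3 of the aged double deletion. With library totals, 14 were higher and 6 lower, and RPN13 (0.22), RPN10 (0.24) and RPN5 (0.051) of the cap and PRE10, PRE5, PRE7, PRE4, PUP1 and PRE2 of the core (0.036 to 0.18) turned positive.

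**Figure D3:**
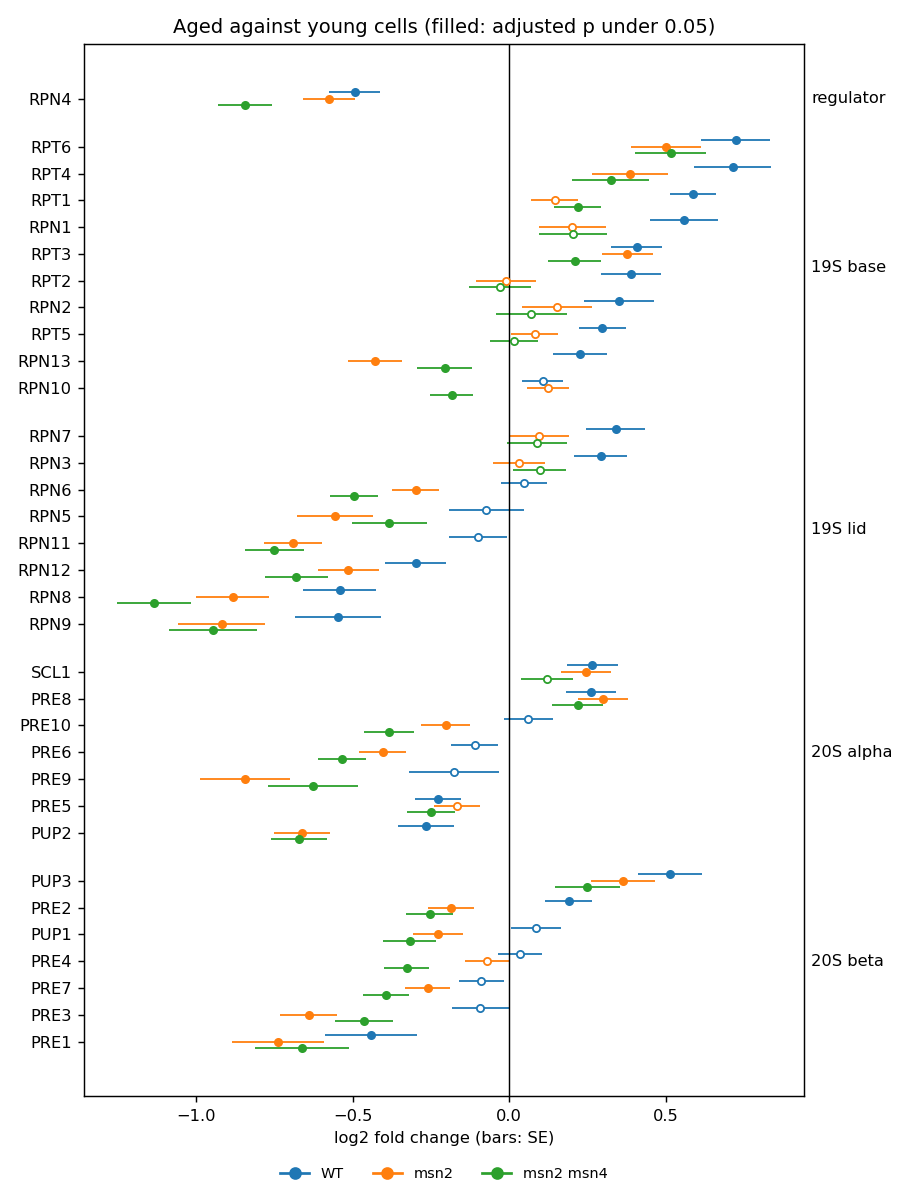
Log2 fold change between aged and young cells (x axis, bars are SE) of each of the 33 members (y axis, by subcomplex) in wild type, msn2 deletion and msn2 msn4 deletion, with filled points for adjusted p under 0.05. The base genes lie to the right in wild type, and the lid and core genes lie further to the left in both deletion strains than in wild type, except PRE8 and PRE5, which lie further to the right in the msn2 deletion.

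In aged cells members of every subcomplex were lower in the deletion strains than in wild type. In the aged msn2 deletion 19 members were lower than in aged wild type and 0 were higher, against 16.0% and 13.9% of all genes tested. The members' median was -0.30 and that of all genes 0.02. At an unadjusted p under 0.05, 28 were lower and 0 higher, and DESeq2 called 26 lower and 0 higher. The 19 were spread over the base (4 of 10), the lid (5 of 8), the alpha subunits (5 of 7) and the beta subunits (5 of 7). PRE9 had 671, 762 and 632 CPM in aged wild type and 375, 406 and 404 in the aged deletion, a log2 fold change of -0.80 ± 0.144. PRE1 had 326, 372 and 329 against 198, 202 and 209 CPM (-0.76 ± 0.148). RPN11 had 338, 364 and 321 against 216, 229 and 234 CPM (-0.59 ± 0.0923). RPN13 had 211, 235 and 200 against 148, 144 and 141 CPM, and the smallest p of the members (-0.57 ± 0.0861, adjusted p = 5.06e-05). For these 4 genes the libraries of the 2 strains did not overlap. RPN5 (-0.68 ± 0.120), RPN9 (-0.59 ± 0.139), PRE3 (-0.58 ± 0.0916), RPN7 (-0.51 ± 0.0947) and PRE10 (-0.43 ± 0.0787) fell as well. RPT3 (-0.04 ± 0.0806) and RPN10 (0.00 ± 0.0659) lay closest to 0 among the subunits.

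In the aged double deletion 23 members were lower than in aged wild type and 0 higher, against 19.7% and 16.6% of all genes tested, and DESeq2 gave the same 23 and 0, with 25 lower and 0 higher at an unadjusted p under 0.05. All 33 log2 fold changes were below 0, with a median of -0.35 beside -0.01 for all genes. The beta subunits had 7 of 7 lower, the alpha subunits 6 of 7, the lid 6 of 8 and the base 4 of 10. RPN8 was at 906, 1025 and 851 CPM in aged wild type and 580, 557 and 543 in the aged double deletion (-0.73 ± 0.117). RPN11, at 210, 183 and 231 CPM in the double deletion, had -0.71 ± 0.0938 and the smallest p of the members (adjusted p = 5.97e-06). PRE10, an alpha subunit, followed with 432, 421 and 373 against 262, 253 and 295 CPM (-0.60 ± 0.0797, adjusted p = 6.93e-06). RPN13, at 140, 132 and 162 CPM, had -0.57 ± 0.0881, PRE1 -0.74 ± 0.150 and PRE6 -0.50 ± 0.0767. RPT1, RPT3, RPT4 and RPT6 were at -0.20 to -0.09 and did not pass. Both comparisons share the 3 aged wild-type libraries. With scaling by library totals 10 members were lower in the aged msn2 deletion and 15 in the aged double deletion, and no called member changed sign. The base then had 1 of 10 genes lower in either strain and the lid 4 of 8. The alpha subunits had 3 and 5 of 7 lower and the beta subunits 2 and 5 of 7, so the calls in the base depended most on the scaling. That scaling moved the median of all genes by 0.13 in the aged msn2 deletion and 0.09 in the aged double deletion, and by 0.05 and 0.17 in the young ones, each against wild type. The 8 daughter-cell genes, whose summed level is given above, were called higher for 7 in the aged double deletion and for 2 in the aged msn2 deletion, both against aged wild type, and their part in the result was not tested.

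The sums followed. The 19S cap was at 5645 ± 105 CPM in aged wild type, 4345 ± 97.2 in the aged msn2 deletion and 4244 ± 326 in the aged double deletion (SD, n = 3). The 20S core was at 3991 ± 219, 2933 ± 35.1 and 2855 ± 215 CPM. In both sums the libraries of wild type lay above those of either deletion, and the libraries of the deletion strains overlapped. Between the aged deletion strains themselves 1 member was higher and 2 lower in the double deletion, against 11.3% and 13.5% of all genes. These were RPT1 (0.23 ± 0.0752), RPN8 (-0.43 ± 0.116) and RPN10 (-0.19 ± 0.0682). The higher count was 2 without replicate 2 of the aged msn2 deletion and 0 without its replicate 3 or without any replicate of the aged double deletion, and 0 with library totals. The lower count was 1 without replicate 1 of the aged msn2 deletion or replicate 3 of the aged double deletion, and 0 without replicate 3 of the aged msn2 deletion.

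**Figure D4:**
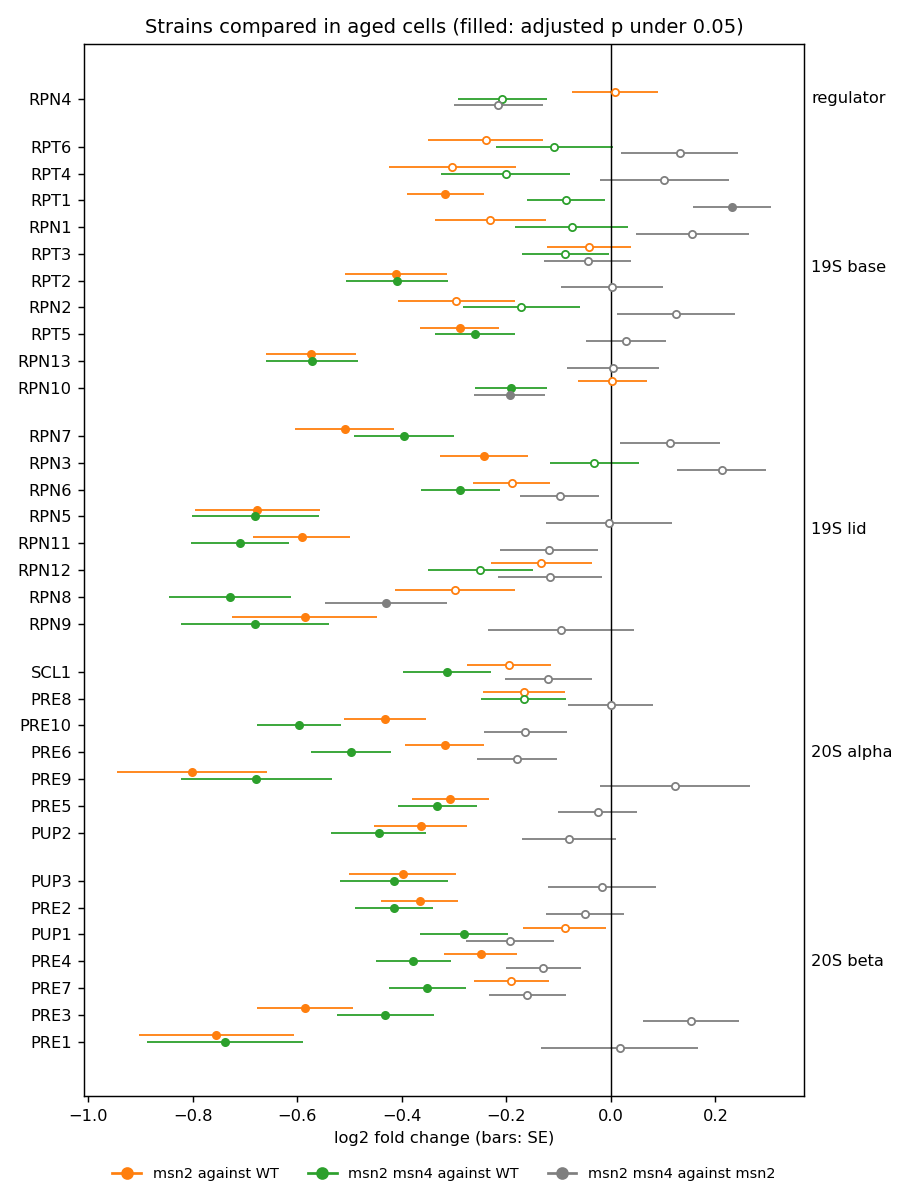
Log2 fold change between strains in aged cells (x axis, bars are SE) for each of the 33 members (y axis, by subcomplex), with filled points for adjusted p under 0.05. The points of the 2 comparisons with wild type lie at or to the left of 0, with 19 and 23 filled, and those between the deletion strains lie around 0, with 3 filled.

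In young cells few members passed the test between strains. Young msn2 deletion cells had 1 member higher and 3 lower than young wild type, against 15.0% and 15.5% of all genes tested. PRE1 had 423, 439 and 533 CPM in wild type and 284, 422 and 310 in the deletion (-0.46 ± 0.147), so that the highest deletion library lay just under the lowest of wild type. PRE5, an alpha subunit, was at -0.37 ± 0.0745, RPN7 at -0.26 ± 0.0950 and PUP1 at 0.22 ± 0.0808. The higher count was 2 without replicate 2 of young wild type and 0 without any other of the 6 libraries, and the lower count was 1 without replicate 3 of young wild type or replicate 1 or 3 of the young deletion. Young double deletion cells had 3 higher and 3 lower than young wild type, against 17.9% and 19.9% of all genes. PRE1 (-0.52 ± 0.148), RPN5 (-0.37 ± 0.120) and PRE5 (-0.31 ± 0.0744) were lower, and RPT1 (0.28 ± 0.0745), RPN1 (0.28 ± 0.107) and RPN6 (0.25 ± 0.0743) higher. Without replicate 3 of either group the lower count was 1, and with library totals 8 were higher and 1 lower. Between the young deletion strains edgeR called 0 higher and 0 lower, against 0.132% and 0.322% of all genes tested, DESeq2 also called 0 and 0, and 1 member was higher and 1 lower at an unadjusted p under 0.05.

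The difference between strains in the age effect was tested in the same fit. The age effect of 8 members was lower in the msn2 deletion than in wild type and that of 0 was higher, against 7.23% and 7.54% of all genes tested, and DESeq2 called 13 lower and 0 higher, with 15 and 0 at an unadjusted p under 0.05. RPN13 had the smallest p (-0.66 ± 0.122, adjusted p = 0.00143), from a rise in wild type to a fall in the deletion. PRE9 (-0.67 ± 0.202), RPN11 (-0.59 ± 0.130), PRE3 (-0.55 ± 0.129), RPT1 (-0.44 ± 0.105), PUP2 (-0.40 ± 0.126), PRE2 (-0.37 ± 0.105) and RPN6 (-0.35 ± 0.105) were the others. The count was 4 without replicate 3 of young wild type and 5 without replicate 2 of the young deletion, replicate 1 or 2 of aged wild type, or replicate 1 of the aged deletion, and 3 with library totals. For the double deletion against wild type the age effect was lower for 14 members and higher for 0, against 8.99% and 7.17% of all genes. DESeq2 called 17 lower and 0 higher, and 21 and 0 were past an unadjusted p of 0.05. RPN6, a lid scaffold at 169, 168 and 175 CPM in aged wild type and 141, 136 and 142 in the aged double deletion, had the smallest p (-0.54 ± 0.106, adjusted p = 0.00142). RPN11 (-0.65 ± 0.131), RPN8 (-0.59 ± 0.164), PRE10 (-0.45 ± 0.112) and PRE2 (-0.44 ± 0.105) were among the others, all of which lay below 0. The count was 8 without replicate 2 or 3 of aged wild type and 9 without replicate 3 of young wild type or replicate 1 of the aged double deletion.

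RPN11, RPN13, RPN6, RPT1, PUP2 and PRE2 were called in both differences, which share the 6 wild-type libraries, and no call in either changed sign with library totals. Between the deletion strains the age effect differed for 0 members higher and 0 lower with edgeR, against 1.71% and 4.46% of all genes tested. There were 3 lower and 0 higher at an unadjusted p under 0.05, and DESeq2 called 1 lower and 0 higher, while library totals gave 4 lower. RPN8 had -0.25 ± 0.164 and RPN4 -0.27 ± 0.118 (adjusted p = 0.207) in that difference.

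Genes that carry PACE outside the proteasome allow the same description for genes not chosen by their role. Of these, 44 were tested with the full element, besides 5839 without it. In the aged double deletion against aged wild type 16 of the 44 were lower and 2 higher, beside 1208 lower and 1058 higher of the 5839 without it, with a median of -0.16 against -0.00. In the aged msn2 deletion 13 were lower and 3 higher, beside 1003 and 845 of those without it, with medians of -0.05 and 0.01. The age effect in wild type had a median of 0.17 with and 0.04 without the element. The median difference in age effect between the double deletion and wild type was -0.26 and -0.02. The core letters, with or without the full element, were in 248 tested genes outside the members. Their medians were -0.02 in the aged double deletion against wild type and -0.06 in this difference. The 5635 genes without the core were at -0.00 and -0.02. Among the subunits, the 5 without the full element had a median of -0.33 and the 27 with it -0.38 in the aged double deletion against wild type, so both were low.

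Coding length went along with the age effect and with differences between strains, and is given because short and long members differed. Across the 5935 genes with a length, Spearman's rho between coding length and the age effect was 0.219 in wild type, 0.130 in the msn2 deletion and 0.151 in the double deletion. Across the 32 subunits it was 0.463, 0.296 and 0.276. In young cells rho was 0.416 over all genes and 0.565 over subunits for the double deletion against wild type. In aged cells these were 0.279 and 0.437. For the msn2 deletion against wild type they were 0.239 and 0.338 young, and 0.0955 and 0.144 aged. For the double deletion against the msn2 deletion they were 0.429 and 0.531 young, and 0.258 and 0.351 aged. For differences in age effect from wild type, rho over all genes was -0.124 (msn2) and -0.0859 (double). These are correlations across genes that share libraries, and genes are not replicates. In wild type the median of all genes under 900 bases was -0.19 and that of the 17 members of that length 0.04. Genes from 900 up to 1500 bases had a median of 0.11 and the 12 members among them 0.32. In the aged double deletion against aged wild type the same classes had medians of -0.17 and 0.02 over all genes and -0.42 and -0.34 over members. Within the lid, RPN8, RPN9 and RPN12, which fell in aged wild type, have 1017, 1182 and 825 bases, and RPN3 and RPN7, which rose, have 1572 and 1290. RPN11, RPN6 and RPN5, which were not called there, have 921, 1305 and 1338 bases. The part of length in these results was not tested.

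**Figure D5:**
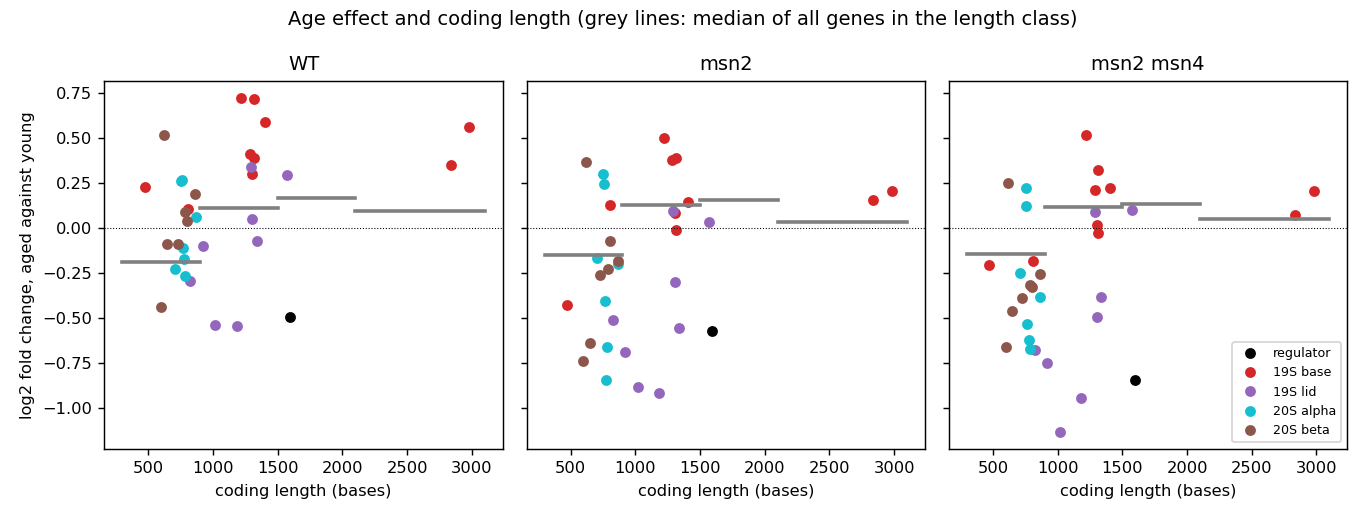
Coding length in bases (x axis) and log2 fold change between aged and young cells (y axis) of the 33 members, coloured by subcomplex, in wild type, msn2 deletion and msn2 msn4 deletion; grey lines give the median of all genes tested in 4 length classes. Most base genes lie above the line of their class in wild type, and members under 900 bases lie mostly below it in the double deletion.

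Genes that assemble or accompany the proteasome, with the lid subunit SEM1 counted among them, moved in both directions. Of 15 such genes, 3 were higher and 5 lower in aged wild type, 3 and 9 in the aged msn2 deletion and 4 and 10 in the aged double deletion, each against young cells of its strain. Over all genes, 33.3% were higher and 30.6% lower in wild type, 36.6% and 33% in the msn2 deletion, and 31.2% and 29.9% in the double deletion, and the wild-type counts lay near or below these shares. With library totals the counts were 11 and 2, 10 and 4, and 5 and 3. BLM10, an activator that caps the 20S core, rose by 0.85 ± 0.118, 0.63 ± 0.118 and 0.58 ± 0.120 in the 3 strains. POC4 and IRC25, the chaperone pair for the alpha ring, fell by 1.09 ± 0.121 and 0.68 ± 0.0889 in wild type, and stayed below 0 with library totals. ECM29, which tethers cap and core and whose window holds PACE, was at 97.4 ± 4.10 CPM in young and 102 ± 2.30 in aged wild type. In the double deletion it was at 170 ± 15.4 young and 79.7 ± 3.93 aged, and its age effect was below that in wild type by a log2 difference of -1.15 ± 0.103 (adjusted p = 3.89e-07). NAS6, a chaperone of the base, was lower than aged wild type in both aged deletion strains (-0.53 ± 0.0859 and -0.79 ± 0.0922). UMP1, the assembly chaperone of the core, was at 164 ± 38.7 CPM in young wild type and lower in both young deletion strains (-0.75 ± 0.142 and -0.79 ± 0.142).

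Of 25 genes of the ubiquitin system, 14 rose and 2 fell with age in wild type, 14 and 5 in the msn2 deletion, and 7 and 7 in the double deletion. The shares of all genes that rose and fell were 33.3% and 30.6% in wild type, 36.6% and 33% in the msn2 deletion, and 31.2% and 29.9% in the double deletion, so the counts in the double deletion lay near those of all genes. With library totals 24, 22 and 20 of the ubiquitin genes rose. UBI4, the polyubiquitin gene of the stress response, was at 304 ± 12.1 CPM in young and 621 ± 15.5 in aged wild type (1.03 ± 0.0667). It was lower in both young deletion strains, at 144 ± 5.17 and 124 ± 3.24 CPM, and rose with age there by 1.62 ± 0.0678 and 1.48 ± 0.0682. CDC48, the segregase that delivers ubiquitylated proteins, rose by 0.73 ± 0.0929 in wild type, and the difference of this age effect from wild type was -0.58 ± 0.131 in the msn2 deletion and -0.59 ± 0.131 in the double deletion. UBA1, the activating enzyme, rose by 0.49 ± 0.0803 in wild type. UBI4, UBA1 and CDC48 hold PACE in their windows. In aged cells 7 of the 25 were lower and 0 higher in the msn2 deletion than in wild type, against 16.0% and 13.9% of all genes tested. In the aged double deletion 9 were lower and 0 higher than in wild type, against 19.7% and 16.6%. With library totals the counts were 3 lower and 3 higher in the msn2 deletion and 6 lower and 2 higher in the double deletion.

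Of 7 regulators of Rpn4, 3 rose and 2 fell with age in wild type, 3 and 3 in the msn2 deletion, and 2 and 3 in the double deletion. The shares of all genes in the same comparisons are those given for the ubiquitin system, 33.3% and 30.6% in wild type, and 7 genes are too few to set against them. With library totals 6, 5 and 4 were higher. YAP1 and HSF1, which encode activators of RPN4, went different ways: YAP1 fell by 0.21 ± 0.0638, 0.57 ± 0.0638 and 0.55 ± 0.0662 (0.30 and 0.024 with library totals in the first 2), and HSF1 rose by 0.32 ± 0.0900, 0.22 ± 0.0893 and 0.25 ± 0.0980. PDR3 and PDR1 encode multidrug resistance factors that also act on RPN4. PDR3 rose by 0.18 ± 0.0689 and 0.51 ± 0.0686 in wild type and the msn2 deletion and was at 0.09 ± 0.0758 in the double deletion, and PDR1 did not pass in any strain. UBR2, the ligase for Rpn4, rose by 0.26 ± 0.104, 0.35 ± 0.104 and 0.45 ± 0.116. Its partner MUB1 was at -0.13 ± 0.0721 in wild type and fell by 0.27 ± 0.0723 and 0.26 ± 0.0771 in the deletion strains, and RAD6, the conjugating enzyme, fell by 0.41 ± 0.0829, 0.48 ± 0.0830 and 0.50 ± 0.0852. With library totals MUB1 (0.32 and 0.16, deletion strains) and RAD6 (0.10 and 0.11, wild type and msn2 deletion) turned positive.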

How the data were processed

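RNA of 18 samples was sequenced by the authors as paired reads from libraries of the NEB Ultra II Directional kit, made from RNA with an integrity number above 6, per the labels. Bcl2fastq, cutadapt 2.6, STAR 2.7.6a, featureCounts of Subread 1.6.2 and build R64 (sacCer3) are named, per the submitters' processing notes; the counting options are not given in the sources used here. The deposited values are expected counts (estimates with fractions), not scaled to depth; 54.6% of values above 0 were not whole. Totals of 4078400 to 41649952 counts set the precision, and counting error is part of the fitted spread.

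Values were rounded, and 1 edgeR 4.0.16 fit (R 4.3.3) was made over all libraries after filterByExpr had removed 285 of 7118 rows. It used TMM factors and group means, with 12 residual degrees of freedom and a common biological coefficient of variation of 0.0922. Quasi-likelihood F tests, two-sided, were run for 12 contrasts, with Benjamini-Hochberg adjustment over 6833 genes, and a gene was called at an adjusted p under 0.05. CPM use TMM factors. The fit was also run on counts simulated from its own fitted spread, with changes set in aged wild type alone. That run does not bear on the choice of scaling or on coding length. Subunits, sums, motifs and lengths are described without a test. Coding lengths, starts and windows were read from the RefSeq R64 genome and annotation, in which 6040 identifiers matched.

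The members and lists were chosen with earlier results of these data known. In each contrast RPN4, the highest and lowest called member of each subcomplex, and the 3 members with the smallest p were named, and a member named once could be given elsewhere. Other lists have at most 4 genes with the smallest p, plus UMP1, BLM10, UBI4, UBR2, MUB1, PDR1, PDR3, YAP1 and HSF1. Other genes in the text were added after their values were seen, as were coding length and the fit that omits aged double deletion libraries. Alternatives were DESeq2 1.42.0, RLE factors, library totals, no filter, at least 10 CPM in 3 libraries, replicate number as a block, only the groups compared, thinning to the smallest total, and each library left out in turn.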

Additional observations from a re-analysis of the deposited data

Results flagged for a closer look

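The age effect differed between strains for the following members in the test of the difference itself (edgeR, adjusted p under 0.05), on the log2 scale, as deletion minus wild type. For the msn2 deletion the values were -0.66 for RPN13, -0.67 for PRE9, -0.59 for RPN11, -0.55 for PRE3, -0.44 for RPT1, -0.40 for PUP2, -0.37 for PRE2 and -0.35 for RPN6. For the double deletion they were -0.65 for RPN11, -0.59 for RPN8, -0.54 for RPN6, -0.45 for PRE10, -0.44 for PRE2, -0.43 for RPN13, -0.42 for PRE6, -0.42 for RPT2, -0.40 for PUP2, -0.40 for PUP1, -0.37 for RPT1, -0.36 for PRE4, -0.35 for RPN4 and -0.29 for RPN10. Both sets share the wild-type libraries.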

How the results depend on the processing

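Scaling by library totals gave 29 members higher and 0 lower with age in wild type, 22 and 2 in the msn2 deletion and 14 and 6 in the double deletion, with the log2 fold change of RPN4 at 0.019 and 0.016 in the first 2. Among the other members named by rule, PRE1 (0.062) and PUP2 (0.25) reversed in wild type and RPN13 (0.16) and RPN6 (0.29) in the msn2 deletion. In the double deletion RPN13 (0.22) and RPN5 (0.051) did. Further called members that changed sign are given above with the age comparison of each strain. Library totals also gave 8 higher and 1 lower in the young double deletion against wild type. Against aged wild type, 10 were lower in the aged msn2 deletion and 15 in the aged double deletion. Between aged deletion strains 0 were higher. The age effect was lower for 3 in msn2 against wild type and for 4 between deletion strains. RPN4 was then at 0.31 in the young double deletion against wild type and at -0.26 between aged deletion strains. Its age effect between deletion strains was -0.43, and all 3 values were past the threshold. DESeq2 gave 2 higher between aged deletion strains, and 13 and 1 lower for the age effects of msn2 against wild type and between deletion strains. RLE factors gave 2 higher and 1 lower between aged deletion strains and a RPN4 age effect of -0.34 (double deletion against wild type). A minimum of 10 CPM gave 1 lower for the age effect between deletion strains and RPN4 at -0.23 between aged deletion strains, past the threshold. Fits of only the groups compared gave 2 higher with age in the double deletion, 0 higher in young msn2, 1 higher in the young double deletion, 0 higher and 1 lower between aged deletion strains, 9 lower for the double deletion's age effect and RPN4 at -0.35 there. Thinning to the smallest total gave 0 and 1 higher in the same young comparisons, 0 higher and 1 lower between aged deletion strains, and 5 and 9 lower (RPN4 -0.29) for the age effects against wild type. Except for library totals and thinning, which change the scale and the depth, the cause was not tested.

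With replicate number as a block, 0 members were higher in young msn2, 1 was lower between aged deletion strains, and the RPN4 age effect was -0.35 in the double deletion (adjusted p = 0.0615); it moved no other count by over 1.5 times. Deviations of same-numbered libraries had a median correlation of -0.00012 over 45 pairs, 13 of them over 0.1, and in 0 of 15 pairs of groups were all 3 over 0.1, so the numbers were not treated as pairs.

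With each library left out in turn, members higher and lower with age ran from 12 to 15 and 5 to 7 in wild type, 5 to 8 and 14 to 18 in the msn2 deletion, and 1 to 7 and 17 to 20 in the double deletion. They ran from 0 to 2 and 1 to 4 in young msn2, 2 to 4 and 1 to 4 in the young double deletion, 0 and 18 to 20 in aged msn2, 0 and 20 to 23 in the aged double deletion, each against wild type, and 0 to 2 and 0 to 3 between aged deletion strains. Lower age effects ran from 4 to 10 for msn2 and 8 to 16 for the double deletion against wild type. RPN4 ran from -0.28 to -0.14 in the aged double deletion against wild type, -0.28 to -0.15 against msn2, and -0.42 to -0.29 in the double deletion's age effect. For 83 named values, RPN4 not among them, 495 of these refits gave the same outcome and 111 lost the call. A value not called in the main fit counted as the same where it stayed so. Under the other settings, the added fit below included, 637 were the same, 68 lost the call, 4 gained it and 6 reversed. The RPN4 change with age also reversed with library totals in wild type (0.019) and the msn2 deletion (0.016). The fit without the aged double deletion, added after the data were seen, gave 21 members lower in aged msn2 against wild type and 10 lower age effects.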
